A study of Mus musculus with 7 samples.

Results

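The major urinary proteins (MUPs) are a family of small lipocalins that the mouse liver secretes in large amounts. The members described here are the genes *Mup1*, *Mup2*, *Mup3*, *Mup7*, *Mup10*, *Mup12*, *Mup17*, *Mup20* and *Mup21*, a list selected on the family name after differences between the genotypes had been measured in these same libraries. Of these 9 listed members, 7 have a row in the table of read counts, among 14819 rows in all. *Mup2* and *Mup10* were not analysed here. The table holds 8 further MUP rows that are not on the list (*Mup11*, *Mup13*, *Mup14*, *Mup15*, *Mup16*, *Mup18*, *Mup19* and the pseudogene *Mup-ps19*), which are given beside the members where sequence is shared. The RNA came from primary hepatocytes of male mice of 2 genotypes, 4 samples from WT mice and 3 samples from WDR6-WKO mice. WDR6-WKO animals lack *Wdr6* in the whole body, through a CRISPR-Cas9 deletion of its second exon, so that the loss was not limited to hepatocytes. Hepatocytes were isolated by collagenase perfusion of the liver and kept overnight in culture, with no treatment named for either group. The study's methods name C57BL/6J and a young adult age as the default for its mice, and do not state strain or age for these animals on their own. Whether WT and WDR6-WKO were littermates and the day of each isolation were not given in the sources used here.

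MUPs leave the liver through the blood, pass into urine and carry small volatile pheromones in the pocket of the lipocalin fold, and some are themselves scent signals. *Mup20* encodes darcin, a male scent protein that attracts females. Transcription of many MUP genes in the liver depends on the pulsatile release of growth hormone, which acts through the growth hormone receptor, the kinase JAK2 and the transcription factor STAT5b, and it is also increased by androgens, glucocorticoids and thyroid hormone. The family is therefore known for higher expression in male than in female liver, and it grew by repeated duplication of a stretch of chromosome 4 that holds both genes and pseudogenes.

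All MUP genes lie in 1 cluster at chr4:59956804-62150863 (GRCm38, GENCODE annotation), which holds 22 protein-coding MUP genes, 26 MUP pseudogenes and 0 protein-coding genes of other families. Every listed member is on the minus strand. The coding sequences of *Mup1*, *Mup12* and *Mup17* are 98.9%, 99.3% and 98.7% identical to that of *Mup7*, and those of *Mup20*, *Mup21* and *Mup3* are 90.1%, 83.6% and 82.3% identical to it. *Mup3* and *Mup21* resemble each other more, at 94.7%. A window of 60 bases of exon 2 (coding bases 121 to 180 of *Mup7*) is printed as an example. It was picked because the counted members differ most from *Mup7* there, among windows aligned without a gap. It is therefore not typical of the whole coding sequence. The bases are printed 5′ to 3′ on the minus strand of GRCm38, with capitals for bases that differ from *Mup7*. They lie at chr4:60069783-60069842 for *Mup7*, chr4:60740698-60740757 for *Mup12*, chr4:60501332-60501391 for *Mup1*, chr4:61595243-61595302 for *Mup17*, chr4:62053530-62053589 for *Mup20*, chr4:62086850-62086909 for *Mup3* and chr4:62150245-62150304 for *Mup21*.
Mup7: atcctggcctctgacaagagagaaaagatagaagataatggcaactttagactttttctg
Mup12: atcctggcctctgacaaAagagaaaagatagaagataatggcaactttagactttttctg
Mup1: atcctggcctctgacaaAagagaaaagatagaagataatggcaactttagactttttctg
Mup17: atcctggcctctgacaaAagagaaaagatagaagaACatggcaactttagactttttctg
Mup20: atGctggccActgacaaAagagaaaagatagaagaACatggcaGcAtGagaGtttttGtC
Mup3: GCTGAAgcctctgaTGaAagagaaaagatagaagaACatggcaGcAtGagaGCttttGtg
Mup21: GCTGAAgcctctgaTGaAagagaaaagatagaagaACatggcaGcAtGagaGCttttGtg
In this window *Mup12* and *Mup1* have the same sequence, with 1 base that differs from *Mup7*, and *Mup17* differs from it at 3 bases. *Mup20* differs from *Mup7* at 11 bases, and *Mup3* and *Mup21*, which are identical to each other here, differ from it at 17.

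Short reads from near-identical genes can match several of them, so each transcript was divided into all its 50-base windows. The windows found in no other annotated gene were counted. The length of 50 bases was a fixed choice, not taken from the read length of these libraries, and the shares below depend on it. Such windows made up 3.64% of the *Mup7* transcript, 5.24% of *Mup1*, 14.6% of *Mup12* and 21.9% of *Mup17*. They made up 49.5% of *Mup20*, 80.7% of *Mup21* and 84.4% of *Mup3*. The value of a single gene is therefore uncertain for the first 4, because the way in which the authors counted reads with several matches, and whether the counting used strand, was not given in the sources used here. Sums over near-identical genes are given below for that reason.

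Upstream sequence was read from RefSeq promoters (GRCm38.p6, 250 bases before to 50 bases after each start), which held 4 of the 7 counted members. The stretch shared by the 4 promoters is printed because it shows that *Mup7* and *Mup17* also differ from *Mup3* and *Mup21* upstream of the genes. *Mup1*, *Mup12* and *Mup20* had no promoter in this set, so their upstream sequence was not compared. Capitals again mark bases that differ from *Mup7*, and the stretches lie on the minus strand at chr4:60070487-60070590 for *Mup7*, chr4:61595973-61596076 for *Mup17*, chr4:62087410-62087512 for *Mup3* and chr4:62150928-62151030 for *Mup21*.
Mup7: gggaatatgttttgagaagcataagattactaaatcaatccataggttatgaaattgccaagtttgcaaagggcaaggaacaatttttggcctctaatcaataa
Mup17: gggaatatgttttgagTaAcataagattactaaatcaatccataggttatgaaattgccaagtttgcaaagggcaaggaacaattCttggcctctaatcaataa
Mup3: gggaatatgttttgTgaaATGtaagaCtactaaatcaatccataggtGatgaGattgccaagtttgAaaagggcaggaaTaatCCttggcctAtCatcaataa
Mup21: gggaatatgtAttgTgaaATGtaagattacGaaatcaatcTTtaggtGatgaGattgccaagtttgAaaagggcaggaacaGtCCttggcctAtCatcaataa
Over 104 aligned positions *Mup17* differs from *Mup7* at 3 bases. *Mup3* differs at 13 bases and *Mup21* at 16, and each of them lacks 1 further base. The annotated start of *Mup7* lies farther upstream than that of the others, so its 300-base window covers another part of the promoter. On both strands, the C/EBP motif TTNNGNAA matched 3 times in the *Mup7* promoter, 4 times in *Mup17*, 2 times in *Mup3* and 3 times in *Mup21*, and 40.7% of all 32851 promoters of this length held at least 1 match. The letters TATATAA matched once in *Mup17*, *Mup3* and *Mup21*, with the first base at -25, -11 and -8 from the annotated start, and were found in 3.24% of all promoters. No match of one motif overlapped a match of the other. The STAT5 motif TTCNNNGAA and the FOXA motif TGTTTAC, present in 8.3% and 3.65% of all promoters, had 0 matches in these 4 windows.

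The 7 libraries held 17816913 to 23668940 counted reads. *Wdr6* had 972, 776, 769 and 909 reads in the WT libraries, in the order of their replicate numbers, and 62, 49 and 40 reads in the WDR6-WKO libraries, so every library fitted its label. Hepatocyte genes were present in all libraries. Levels are in CPM (counts scaled to a common library total with edgeR's TMM factors). The summed level of 13 markers, which include *Alb*, *Ttr* and *Hnf4a*, was 8178 to 9726 CPM in WT and 7588 to 8074 CPM in WDR6-WKO. Most of this sum was *Alb*, at 6360 to 7934 CPM in WT and 6087 to 6803 CPM in WDR6-WKO. In the fit across all 14779 genes tested (edgeR's quasi-likelihood test, called at a Benjamini-Hochberg adjusted p under 0.05), 7 of these 13 markers were called lower and 1, *Arg1*, was called higher. Of 15 Kupffer cell markers 6 were called higher and 0 lower, with summed levels of 921 to 1011 CPM in WT and 1086 to 1292 CPM in WDR6-WKO. At an unadjusted p under 0.05, 11 Kupffer cell markers were higher and 1 was lower, and DESeq2 and limma-voom each called 7 higher and 0 lower. Without WDR6-WKO replicate 3, 10 were called higher. None of these 15 markers was at 0. Stellate cell markers were called higher in 2 of 12 cases, cholangiocyte markers in 2 of 6, leukocyte markers in 1 of 2 and sinusoidal endothelial cell markers were called lower in 1 of 12, beside 6.65% of all genes tested called higher and 6.18% called lower. With WDR6-WKO replicate 3 left out, 4 stellate cell markers were called higher. Of 15 genes that mark dedifferentiation of hepatocytes in culture, 3 (*Krt8*, *Krt18* and *Afp*) were called lower and 0 higher, with 1 higher at an unadjusted p under 0.05, 0 by DESeq2 and 1 by limma-voom, and without WDR6-WKO replicate 3 the test called 4 higher and 3 lower. The part of these differences in the MUP values was not tested. WDR6-WKO replicate 3 stood apart from the other replicates of its genotype, with a chi-square of 14.3 and 15.96 per gene against replicates 1 and 2, which differed from each other by 5.13. Without it the number of genes called went from 1897 to 4233, and the MUP values are therefore also given without it.

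In WT hepatocytes *Mup3* and *Mup7* had the highest levels per length of transcript. *Mup3* stood at 788 ± 55.9 CPM per kb (s.d., n = 4) and *Mup7* at 764 ± 52.1 CPM per kb, and the libraries of these neighbours overlapped. *Mup20* at 468 ± 37.8 CPM per kb and *Mup12* at 422 ± 20.5 CPM per kb followed, and these also overlapped. *Mup17* came next at 111 ± 63.8 CPM per kb, then *Mup21* at 9.95 ± 1.06 CPM per kb and *Mup1* at 1.71 ± 0.337 CPM per kb, each below the libraries of the gene before it. Errors of levels are s.d. over the 4 WT or the 3 WDR6-WKO libraries throughout. In WDR6-WKO hepatocytes the order was *Mup3* at 750 ± 43.9 CPM per kb (s.d., n = 3), *Mup20* at 624 ± 6.16, *Mup7* at 454 ± 22.3, *Mup12* at 211 ± 5.48, *Mup17* at 19.2 ± 7.498, *Mup21* at 18.5 ± 1.55 and *Mup1* at 0.687 ± 0.206, where only the libraries of *Mup17* and *Mup21* overlapped those of their neighbour in the order. On this scale *Mup20* stood below *Mup7* in WT and above it in WDR6-WKO. Per-length levels of near-identical genes depend on how shared reads were assigned. The order moved when all reads of a gene were divided by only its length of sequence found in no other gene. In WT it then began with *Mup7*, *Mup12*, *Mup20* and *Mup3*. In WDR6-WKO *Mup20* did not pass *Mup7* on that scale, at 1332 and 13139 CPM per kb of unshared sequence, and *Mup12* stood at 1524. Reads from shared sequence stayed in these values, so a gene with little unshared sequence stands high. *Mup7* has 32 unshared windows and *Mup20* has 435, so that order does not rank their expression.

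Between the genotypes, the near-identical members were lower in WDR6-WKO, the more divergent *Mup20* and *Mup21* were higher, and *Mup3* stood at nearly the same level. All 7 members with a row passed the filter on low counts. In the fit, 3 of the 7 (*Mup1*, *Mup7* and *Mup12*) were called lower, beside 6.18% of all genes tested, and 2 (*Mup20* and *Mup21*) were called higher, beside 6.65%. CPM ranges of the genotypes were separate, with WDR6-WKO lower, for 4 members and 11.7% of all genes, and with WDR6-WKO higher for 2 members and 11.8% of all genes. The family was proposed with this contrast known, so these counts and the values below are a description. In bulk RNA fewer cells that express a gene and less of its RNA per cell cannot be told apart.

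**Figure D1:**
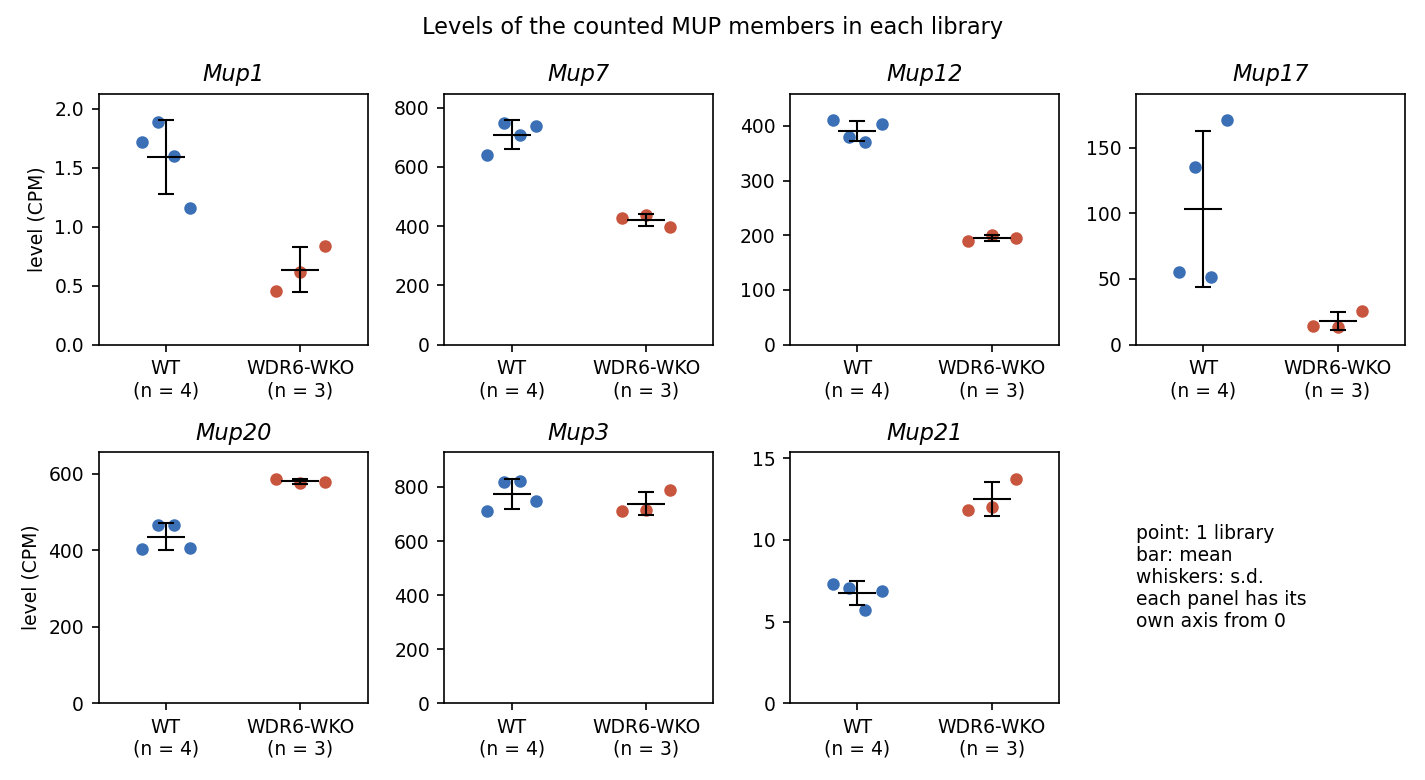
Level of each counted MUP member in CPM (vertical axes from 0, 1 scale per panel) in 4 WT and 3 WDR6-WKO libraries, with 1 point per library, a bar at the mean and whiskers of 1 s.d. *Mup1*, *Mup7*, *Mup12* and *Mup17* were lower in all WDR6-WKO libraries, *Mup20* and *Mup21* were higher in all of them, and *Mup3* overlapped.

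*Mup7*, one of the abundant urinary MUPs of the central group, had levels of 641, 747, 709 and 739 CPM in the WT libraries and of 428, 437 and 397 CPM in the WDR6-WKO libraries, given here and below in the order of the replicate numbers. Every WDR6-WKO library lay below every WT library, at 59.3% of the WT mean, with a log2 fold change of -0.75 ± 0.06 (SE). *Mup12*, another central MUP, had 410, 379, 371 and 403 CPM in WT and 190, 200 and 195 CPM in WDR6-WKO. Its WDR6-WKO libraries were close together and reached 49.9% of the WT mean, with a log2 fold change of -1.002 ± 0.05 (SE). *Mup1*, which the table counts with few reads, had 34, 36, 30 and 23 reads in WT and 11, 13 and 15 reads in WDR6-WKO. At this depth the groups still did not overlap (1.59 ± 0.312 CPM in WT and 0.636 ± 0.191 CPM in WDR6-WKO), and the log2 fold change was -1.34 ± 0.30 (SE). Its call did not hold when WDR6-WKO replicate 1 was left out, where the log2 fold change was -1.14.

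*Mup17* had the lowest WDR6-WKO level relative to WT of the 7 members, and also the widest spread. Its levels were 55.5, 135, 51.7 and 171 CPM in WT and 14.4, 13.2 and 25.8 CPM in WDR6-WKO. WT replicates 2 and 4 were high and replicates 1 and 3 low, and all 3 WDR6-WKO libraries lay below the lowest WT library. The log2 fold change was -2.56 ± 0.63 (SE), and the quasi-likelihood test did not call it, while DESeq2 and limma-voom did, at log2 fold changes of -2.54 and -2.44.

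*Mup20*, the gene for darcin, had 403, 464, 465 and 406 CPM in WT and 586, 575 and 577 CPM in WDR6-WKO. WT replicates 1 and 4 were lower than replicates 2 and 3, the WDR6-WKO libraries agreed within 1.02-fold, and the groups did not overlap. The WDR6-WKO mean was 133% of WT, with a log2 fold change of 0.42 ± 0.06 (SE). *Mup21*, a low-level member at the end of the cluster with the higher coordinates, had 7.31, 7.07, 5.69 and 6.88 CPM in WT and 11.8, 12.002 and 13.7 CPM in WDR6-WKO. All WDR6-WKO libraries were above all WT libraries, at 186% of the WT mean and a log2 fold change of 0.89 ± 0.12 (SE). *Mup3*, which is close to *Mup21* in sequence, had 710, 820, 821 and 748 CPM in WT and 711, 716 and 788 CPM in WDR6-WKO. The groups overlapped, the WDR6-WKO mean was 95.3% of WT, and the log2 fold change was -0.07 ± 0.06 (SE), which was not called. Without WDR6-WKO replicate 3 the log2 fold changes were -0.72 for *Mup7*, -1.003 for *Mup12*, -1.57 for *Mup1*, -2.90 for *Mup17*, 0.42 for *Mup20*, 0.82 for *Mup21* and -0.12 for *Mup3*, with no change of direction.

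Sums do not depend on how reads were divided among the genes that enter them. They still depend on reads of shared sequence that were assigned to genes outside the sum or left out of the counting. *Mup2*, for example, has 0 windows found in no other gene and has no row. Over the 7 members the summed level was 2228, 2554, 2424 and 2474 CPM in WT and 1942, 1954 and 1997 CPM in WDR6-WKO, so that every WDR6-WKO library lay below every WT library. The WDR6-WKO mean was 81.2% of WT, a log2 ratio of -0.30, and with all 15 MUP rows of the table the log2 ratio was -0.31. The 4 near-identical members together gave 1108, 1263, 1132 and 1314 CPM in WT and 633, 651 and 618 CPM in WDR6-WKO, or 52.6% of WT, and 56.0% when *Mup17* was left out. All 11 protein-coding MUP rows with a coding sequence at least 98% identical to that of *Mup7* summed to a WT mean of 1322 ± 117 CPM (s.d., n = 4), and their WDR6-WKO sum of 709 ± 18.9 CPM (s.d., n = 3) was 53.6% of it. In contrast, *Mup20*, *Mup21* and *Mup3* summed to 1120, 1292, 1292 and 1160 CPM in WT and 1309, 1303 and 1379 CPM in WDR6-WKO. This sum was 109% of WT, and its WDR6-WKO libraries were all above the WT libraries. These groups were formed by sequence identity, after the values had been seen.

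The make-up of the family's reads therefore differed between the genotypes. *Mup7* and *Mup12* held 29.3% ± 0.454 and 16.2% ± 1.59 of the reads counted on the 7 members in WT, and 21.4% ± 1.34 and 9.93% ± 0.281 in WDR6-WKO (s.d.). *Mup20* held 17.96% ± 1.16 in WT and 29.5% ± 0.648 in WDR6-WKO, and *Mup3* held 32.0% ± 1.49 and 37.6% ± 1.64. *Mup17* made up 4.204% ± 2.29 in WT and 0.903% ± 0.338 in WDR6-WKO. A ratio of counts within a library needs no scaling between libraries. The ratio of *Mup7* to *Mup20* reads was 1.59, 1.61, 1.52 and 1.82 in WT and 0.730, 0.759 and 0.688 in WDR6-WKO. The ratio of *Mup3* to *Mup20* was 1.76, 1.77, 1.76 and 1.84 in WT, with little spread, and 1.21, 1.24 and 1.37 in WDR6-WKO.

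**Figure D2:**
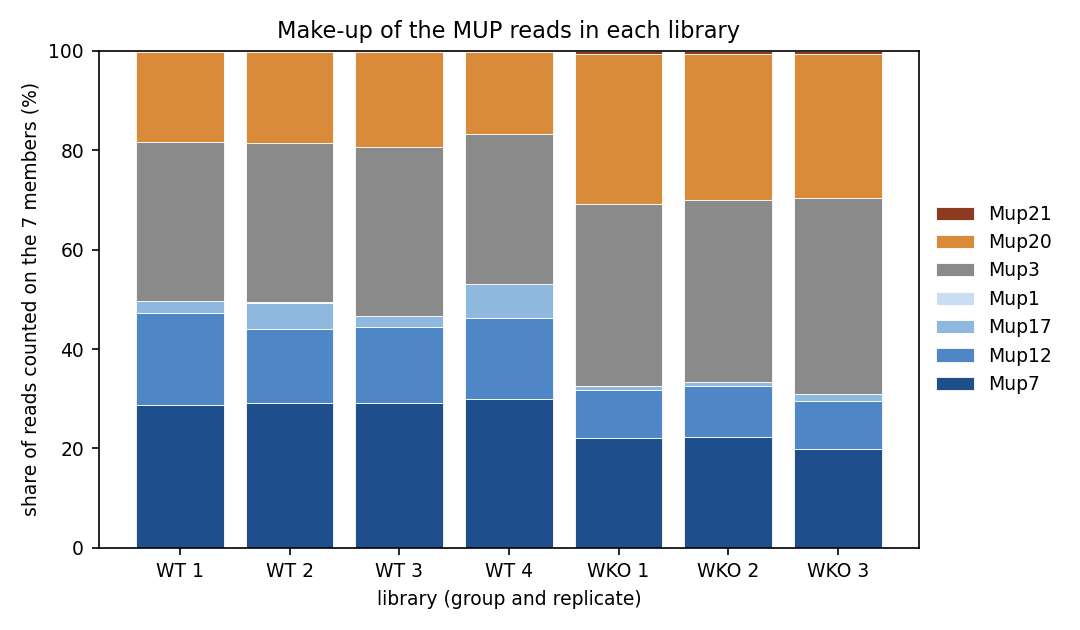
Share of the reads counted on the 7 members that fell on each gene (vertical axis in percent, stacked to 100) in each of the 7 libraries. The share of *Mup20* was 16.4% to 19.2% in the WT libraries and 28.9% to 30.2% in the WDR6-WKO libraries, and the shares of *Mup7* and *Mup12* were smaller in WDR6-WKO.

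**Figure D3:**
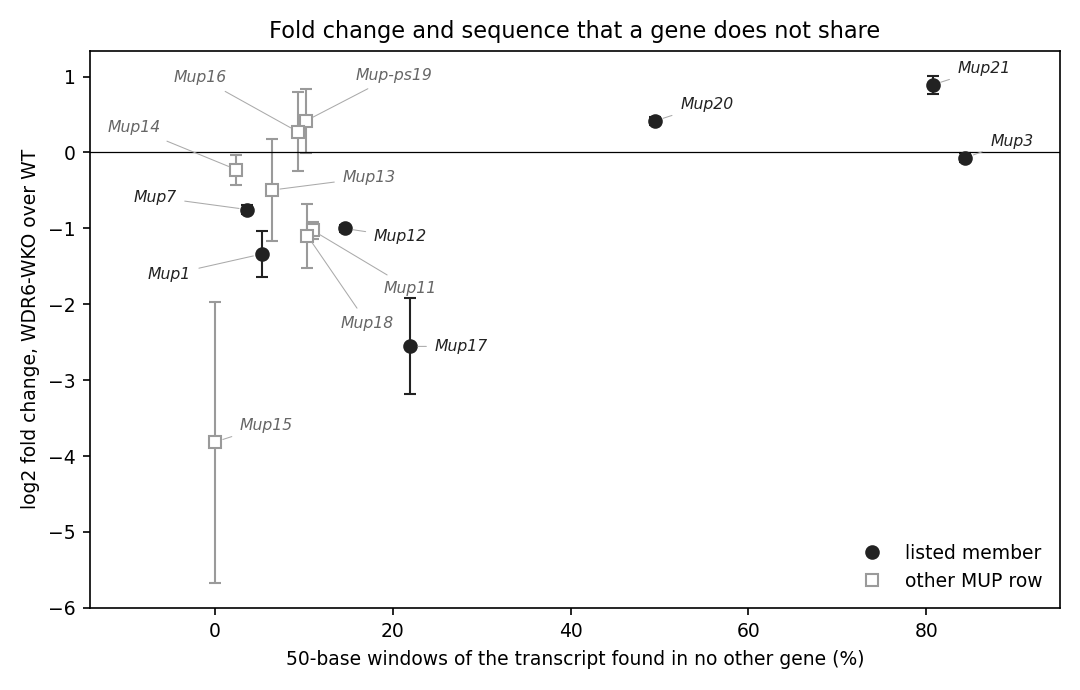
Log2 fold change of WDR6-WKO over WT (vertical axis, whiskers of 1 SE) against the percent of 50-base windows of the transcript that occur in no other gene (horizontal axis), for the 7 listed members (filled circles) and the 7 other MUP rows that were tested (open squares). Members with 21.9% or less lay below 0, and *Mup20*, *Mup21* and *Mup3*, with 49.5% or more, lay above or near 0. Of the other rows, *Mup16* at 9.34% and *Mup-ps19* at 10.2% lay above 0. *Mup11*, *Mup13*, *Mup14*, *Mup15* and *Mup18* lay below it.

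The 8 MUP rows outside the list did not all follow the near-identical members. *Mup11*, 98.3% identical to *Mup7* in its coding sequence, had 65.2, 76.1, 65.9 and 78.4 CPM in WT and 30.3, 32.4 and 42.9 CPM in WDR6-WKO, and was called lower at a log2 fold change of -1.03 ± 0.12 (SE). *Mup16* had 12.9, 33.8, 14.5 and 44.7 CPM in WT and 25.0, 40.5 and 30.6 CPM in WDR6-WKO, and *Mup-ps19* had 14.2, 24.4, 11.6 and 23.7 CPM in WT and 17.2, 37.5 and 19.2 CPM in WDR6-WKO. In both rows WT replicates 2 and 4 were high and replicates 1 and 3 were low, as for *Mup17*, and neither was called. The ratio of *Mup16* to *Mup17* reads was 0.232, 0.250, 0.281 and 0.262 in WT, nearly constant over libraries in which each gene varied more than 3-fold, and 1.74, 3.06 and 1.18 in WDR6-WKO. The log2 fold changes of *Mup13*, *Mup14* and *Mup18* were -0.50 ± 0.67, -0.23 ± 0.20 and -1.10 ± 0.42 (SE) at mean levels under 5 CPM in each genotype, and none was called.

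Single WT libraries set the level of 2 rows for which every 50-base window occurs in another gene. *Mup15* had 39, 34, 521 and 24 reads in WT and 19, 4 and 13 reads in WDR6-WKO, so that replicate 3 held most of its WT reads. *Mup19* had 2, 196, 6 and 6 reads in WT and 1, 5 and 3 reads in WDR6-WKO, with replicate 2 far above the other libraries, and did not pass the filter on low counts. *Mup13* was highest in WT replicate 1, with 112 reads against 34 to 42 in the other WT libraries.

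**Figure D4:**
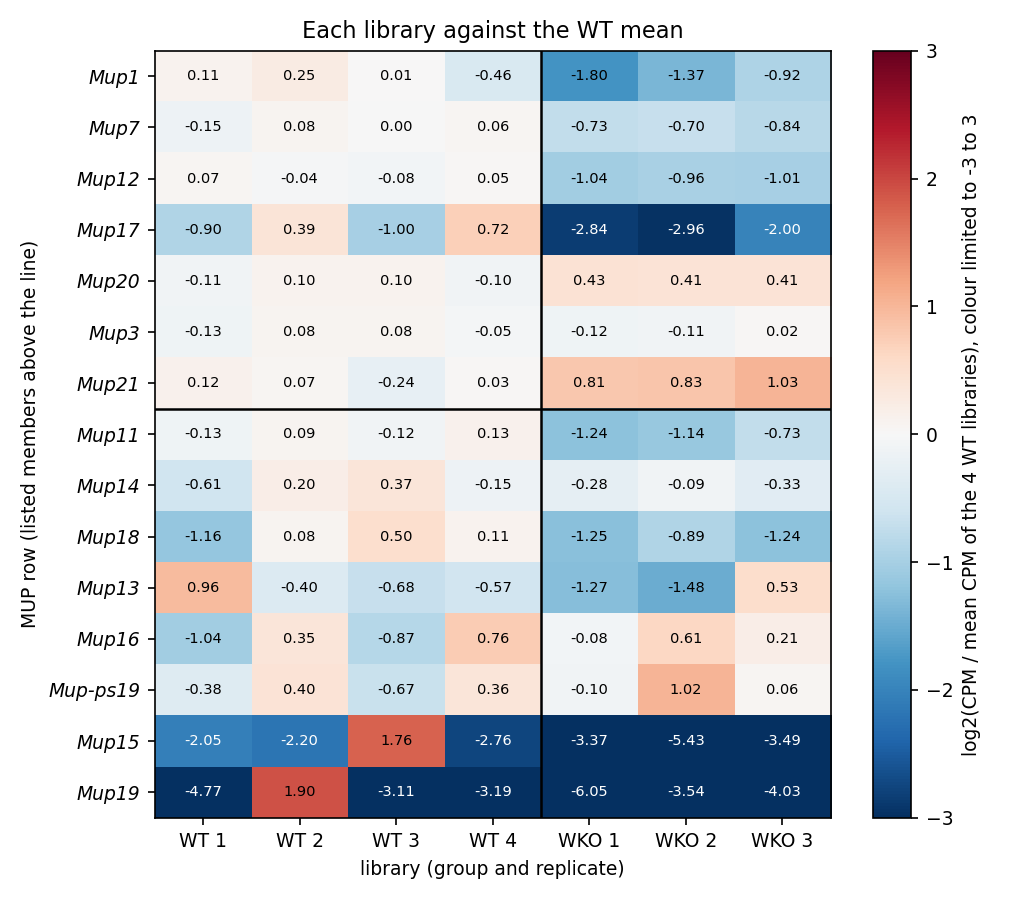
Level of each of the 15 MUP rows in each library, as log2 of CPM over the mean CPM of the 4 WT libraries (numbers and colour, with the colour limited to -3 to 3), with listed members above the horizontal line and WT left of the vertical line. *Mup17*, *Mup16* and *Mup-ps19* were high in WT replicates 2 and 4 and low in 1 and 3, and *Mup15* and *Mup19* were each high in 1 WT library.

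The spread between the WT libraries, whose values also entered the contrast on which the family was chosen, is given as a description. The coefficient of variation over the 4 WT libraries was 57.3% for *Mup17*, and 1 of 2018 genes of other families with a WT mean within 1.5-fold of it had a larger one, beside a median of 3.64%. *Mup3*, *Mup7* and *Mup20* varied by 7.10%, 6.81% and 8.08%, and 3.64%, 3.78% and 4.31% of genes of like level varied more. *Mup12* varied by 4.87%, and 15.1% of genes of like level varied more. *Mup21* varied by 10.7% and *Mup1* by 19.7%, and 52.4% and 57.3% of genes of like level varied more. In WDR6-WKO the highest library exceeded the lowest by 1.95-fold for *Mup17*, 1.11-fold for *Mup3*, 1.10-fold for *Mup7*, 1.05-fold for *Mup12* and 1.02-fold for *Mup20*.

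Genes on both sides of the cluster were examined to see whether the difference reached beyond it. Of the 5 nearest protein-coding genes on each side, 9 were tested and 0 were called by the quasi-likelihood test, DESeq2 or limma-voom. Of all genes tested, the quasi-likelihood test called 6.18% lower and 6.65% higher. With only 9 genes, a count of 0 is near these shares and does not show where the difference ends. An unadjusted p under 0.05 was found for 1 of the 9. *Snx30*, a sorting nexin 52067 bases from the end of the cluster with the lower coordinates, had 44.3 ± 2.31 CPM in WT and 47.6 ± 1.48 CPM in WDR6-WKO. *Zfp37*, a zinc finger gene 38677 bases beyond the other end, had 3.52 ± 0.688 and 3.68 ± 0.230 CPM. The copper transporter gene *Slc31a1* had 105 ± 0.912 CPM in WT and 96.6 ± 5.12 CPM in WDR6-WKO, with a log2 fold change of -0.12 ± 0.05 (SE). Without WDR6-WKO replicate 3, 1 was called higher and 1 lower, in a fit that called 4233 genes in all, against 1897 with every library. The median log2 fold change of the 9 genes was 0.06, beside 0.0051 over all genes tested.

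Growth hormone signalling controls many MUP genes, so its components were described next, from a list written with earlier results of these data known. Of 10 tested genes of growth hormone and STAT5 signalling 4 were called lower and 0 higher, beside 6.18% and 6.65% of all genes tested. The median log2 fold change was -0.21, beside 0.0051 over all genes tested. The growth hormone receptor *Ghr* had a WT level of 265 ± 12.9 CPM (s.d., n = 4) and a WDR6-WKO level of 222 ± 16.2 CPM (s.d., n = 3) and fell by 0.25 ± 0.06 (SE) on the log2 scale, with an adjusted p of 0.00771 (edgeR, Benjamini-Hochberg). *Jak2*, the kinase bound to the receptor, fell by 0.29 on the log2 scale (adjusted p = 0.00458, edgeR). The STAT5 targets *Igf1*, the growth factor made in response to growth hormone, and *Igfals*, which carries it in the blood, had log2 fold changes of -0.20 and -0.29 (adjusted p = 0.01003 and 0.0212, edgeR). *Stat5b* itself had 90.1 ± 4.35 CPM in WT and 86.02 ± 3.18 CPM in WDR6-WKO, and its paralog *Stat5a* had 29.8 ± 2.78 and 25.5 ± 0.772 CPM. *Cish*, *Socs2* and *Socs3*, feedback inhibitors of the pathway that STAT factors induce, had log2 fold changes of 0.07 ± 0.08, -0.17 ± 0.08 and -0.22 ± 0.10 (SE), and the repressor gene *Bcl6* had 0.12 ± 0.12. None of these 6 was called. No gene of the list was higher at an unadjusted p under 0.05 or called higher by DESeq2 or limma-voom.

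Among 16 tested factors that bind or regulate MUP promoters, 4 were called lower and 0 higher, beside 6.18% and 6.65% of all genes tested. Their median log2 fold change was -0.12. *Onecut1*, a liver-enriched homeodomain factor also known as HNF6, fell from 4.73 ± 0.499 CPM to 2.07 ± 0.410 CPM, a log2 fold change of -1.18 ± 0.18 (SE, adjusted p = 0.000438, edgeR). *Hnf4a*, a nuclear receptor that maintains hepatocyte genes, fell from 385 ± 11.4 to 320 ± 27.7 CPM (adjusted p = 0.00502, edgeR). *Cebpa*, whose protein binds C/EBP motifs, fell from 122 ± 7.36 to 99.8 ± 11.9 CPM (adjusted p = 0.0186, edgeR), and *Foxa1* fell from 41.9 ± 1.86 to 34.4 ± 0.951 CPM (adjusted p = 0.00770, edgeR). Of the hormone receptor genes, the glucocorticoid receptor *Nr3c1* had 99.1 ± 4.30 CPM in WT and 95.5 ± 7.76 CPM in WDR6-WKO, and the thyroid hormone receptor *Thrb* had 38.5 ± 1.24 and 39.0 ± 3.59 CPM, and neither was called. *Zhx2*, a regulator of MUP and other liver genes, had 26.6 ± 2.39 and 27.6 ± 3.20 CPM. Without WDR6-WKO replicate 3 the number called lower was 7, in a fit that called 4233 genes in all, against 1897 with every library. No factor was higher at an unadjusted p under 0.05 or called higher by DESeq2 or limma-voom.

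**Figure D5:**
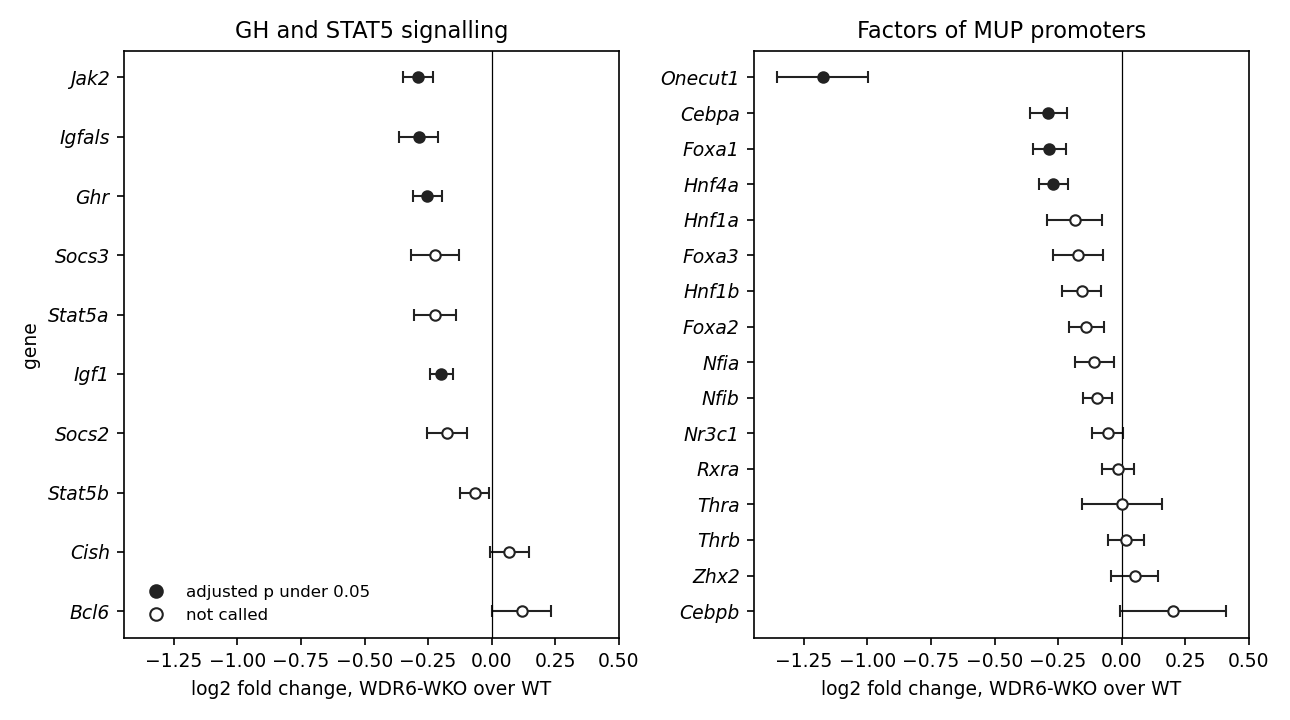
Log2 fold change of WDR6-WKO over WT (horizontal axes, whiskers of 1 SE) for 10 genes of growth hormone and STAT5 signalling and for 16 factors of MUP promoters, with filled points for genes called at an adjusted p under 0.05. The 4 called genes in each panel lay below 0, and *Onecut1* was the lowest at -1.18.

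Other genes with sex-biased expression in the liver did not share 1 direction. Of 14 tested male-biased genes outside the MUP family 4 were called lower and 0 higher, beside 6.18% and 6.65% of all genes tested. Their median log2 fold change was -0.24. *Selenbp2*, a selenium-binding protein gene, fell from 18.3 ± 2.53 to 6.95 ± 1.13 CPM, a log2 fold change of -1.39 ± 0.13 (SE, adjusted p = 4.65e-06, edgeR). *Susd4*, a complement regulator, fell by 1.195 on the log2 scale (adjusted p = 6.64e-06, edgeR), and the cytochrome P450 genes *Cyp2d9* and *Cyp7b1*, which hydroxylate steroids, had log2 fold changes of -0.84 and -0.54 (adjusted p = 0.00116 and 0.0204, edgeR). At an unadjusted p under 0.05, 1 gene was higher and 6 were lower, and DESeq2 and limma-voom called 0 higher. Without WDR6-WKO replicate 3, 1 gene was called higher, in a fit that called 4233 genes in all, against 1897 with every library. Of 11 tested female-biased genes 2 were called higher and 3 lower, beside 6.65% and 6.18% of all genes tested, with a median of -0.14. *Nnmt*, the nicotinamide methyltransferase, and *Abcd2*, a peroxisomal transporter, rose by log2 fold changes of 0.27 ± 0.06 and 0.60 ± 0.15 (SE). The transcriptional coregulator *Trim24* and the cytochrome P450 genes *Cyp2c69* and *Cyp2c40*, at log2 fold changes of -0.38, -3.16 and -1.70, were the lower ones, and the last 2 had mean levels of 1.32 and 0.952 CPM in WT. Without WT replicate 4 or without WDR6-WKO replicate 1, only 1 of the female-biased genes was called higher.

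Members of the wider lipocalin fold family outside the cluster also went in both directions. Of 8 tested lipocalins 3 were called higher and 1 lower, beside 6.65% and 6.18% of all genes tested. Their median log2 fold change was 0.20. *Lcn2*, an iron-scavenging acute-phase lipocalin, rose from 1631 ± 96.3 to 2230 ± 30.9 CPM, a log2 fold change of 0.45 ± 0.05 (SE, adjusted p = 1.95e-05, edgeR). The acute-phase orosomucoid genes *Orm2* and *Orm1* rose by log2 fold changes of 0.64 ± 0.08 and 0.21 ± 0.05 (SE). *Apom*, a lipocalin of high-density lipoprotein, fell from 68.6 ± 5.87 to 38.3 ± 3.59 CPM, a log2 fold change of -0.84 ± 0.08 (SE, adjusted p = 4.03e-06, edgeR). The retinol carrier *Rbp4* had 475 ± 10.3 CPM in WT and 449 ± 37.4 CPM in WDR6-WKO and was not called.

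Abundant secreted hepatocyte proteins were described to set the MUPs beside other products of the same secretory cells. Of 24 tested genes 5 were called lower and 3 higher, beside 6.18% and 6.65% of all genes tested. Their median log2 fold change was -0.11. *Ahsg*, the gene for fetuin-A, fell from 1620 ± 127 to 829 ± 68.2 CPM, a log2 fold change of -0.97 ± 0.07 (SE, adjusted p = 3.43e-07, edgeR). *Kng1*, *Fgb*, *Fga* and *Apoa1*, which encode kininogen, fibrinogen chains and the main protein of high-density lipoprotein, fell, with log2 fold changes of -0.45, -0.45, -0.41 and -0.69. *Vtn*, *Serpina1d* and *Apoa2* rose by log2 fold changes of 0.26 ± 0.06, 0.24 ± 0.05 and 0.26 ± 0.07 (SE). *Alb* had 7366 ± 730 CPM in WT and 6480 ± 363 CPM in WDR6-WKO, and was not called. The summed level of the 24 genes was 24400 to 27960 CPM in WT and 22480 to 23830 CPM in WDR6-WKO, a log2 ratio of -0.18, where the 7 MUP members together gave -0.30. Without WDR6-WKO replicate 3, 9 of the 24 were called lower and 5 higher. That fit called 4233 genes in all, against 1897 with every library. Without WDR6-WKO replicate 1 only 1 of the 24 was called higher.

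The genes whose pattern over the 7 libraries was most like the median of the members were found among 9334 genes of other families with a mean of at least 10 CPM. Likeness was measured as the root mean square difference between log2 levels relative to the WT mean. The members went in both directions, and their median profile ran close to that of *Mup7* except in WDR6-WKO replicate 3. In that library the profile stood at -0.63 and *Mup7* at -0.84 on the log2 scale. Likeness to the profile is therefore not the same as likeness to *Mup7*. *Bnip3*, a mitophagy receptor gene, was nearest with a difference of 0.0489, followed by *Tdo2*, a tryptophan dioxygenase, at 0.0615, *Igfbp1*, a binding protein of insulin-like growth factors, at 0.0684, *Anpep*, a membrane aminopeptidase, at 0.0861 and *Cps1*, the first enzyme of the urea cycle, at 0.0881. *Igfbp1* had 625 ± 17.5 CPM in WT and 407 ± 9.76 CPM in WDR6-WKO, and *Bnip3* had 68.7 ± 3.18 and 41.7 ± 1.17 CPM.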

How the data were processed

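Read counts per gene symbol in 7 libraries were deposited by the authors without normalization. The submitters' processing notes name Bowtie2 2.2.3 and the build mm10 (GRCm38); the counting tool, its annotation, its treatment of reads with several matches and its use of strand were not given in the sources used here. The smallest row total is 50, so genes with fewer reads have no row. Counts were scaled to CPM with TMM factors and tested with edgeR 4.0.16 (R 4.3.3, filterByExpr, quasi-likelihood test with robust dispersions between the genotypes, Benjamini-Hochberg adjustment over 14779 genes, threshold 0.05). The study's methods compared the genotypes with DESeq2, kept here as an alternative (DESeq2 1.42.0) beside limma-voom (limma 3.58.1). The F statistic and the fold change gave each standard error. The fit was tested on simulated data.

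Libraries held 17816913 to 23668940 counted reads, and the biological coefficient of variation was 7.40%. Levels per kb used 1 transcript per gene from GENCODE. The members and gene lists were chosen with earlier results of these data known. The rule for named genes covers all members, the 5 nearest protein-coding genes on each side of the cluster, in each list the called genes up to 5 in each direction by p, every gene of the first 2 lists, the 5 genes most like the members, and *Wdr6*. Some genes that the rule allows are left unnamed, and 1 promoter factor is not reported here. The samples are described as biological replicates. Samples with the same replicate number came from different mice, and their deviations from the group means correlated at 0.0689, 0.0311 and 0.0566, so no pairing was assumed.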

Additional observations from a re-analysis of the deposited data

Results flagged for a closer look

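In 8 of 79 values examined, 1 of the 4 WT libraries lay far from the other 3, by Dixon's criterion on the gap to the nearest library relative to the whole range. For independent values with a normal spread, chance gives about 1 in 20 groups of this size. The values examined include MUP rows with shared sequence and genes named because they were called, so the number is a description. The MUP rows were 3 of the 8. *Mup15* reached 27.7 CPM in WT replicate 3, with 1.205 to 1.97 CPM in the other WT libraries. *Mup19* reached 10.3 CPM in WT replicate 2, with 0.101 to 0.319 CPM in the others, and *Mup13* reached 5.65 CPM in WT replicate 1, with 1.81 to 2.199 CPM in the others. None of the 7 listed members was among them. Of the factors and signalling genes, *Onecut1* stood at 5.48 CPM in WT replicate 3, with 4.44 to 4.57 CPM in the other WT libraries. *Bcl6* stood at 17.0 CPM in WT replicate 4, with 12.7 to 13.2 CPM in the others. *Nfib* stood at 105 CPM in WT replicate 4, with 107 to 108 CPM in the others, a small gap within a narrow range. *Cyp2d9* stood at 34.1 CPM in WT replicate 3, with 22.7 to 23.9 CPM in the others. *Vtn* stood at 130 CPM in WT replicate 4, with 146 to 149 CPM in the others.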

How the results depend on the processing

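Of 98 log2 fold changes recomputed for the 7 members under 14 alternatives each, all kept their direction and 95 kept their side of the threshold. The exceptions were *Mup17*, called by DESeq2 and limma-voom, and *Mup1*, not called without WDR6-WKO replicate 1. The summed level of the members had a log2 ratio of -0.34 to -0.27 when each replicate was left out in turn. With each replicate left out, 1032 to 4233 genes were called in all, 2 or 3 members were called lower and 2 higher. The highest count came without WDR6-WKO replicate 3 and the lowest without WDR6-WKO replicate 2, and the cause was not tested. With the replicate block, which left out WT replicate 4, 1749 genes were called, 3 members lower and 2 higher. Outside the list *Mup16* and *Mup-ps19* were then called higher. *Mup15* was called lower without WT replicate 3, at a log2 fold change of -1.525. *Mup18* was called lower without WT replicate 1, at -1.34. With 1 replicate left out the log2 fold change was -0.025 to 0.622 for *Mup-ps19*, which turned without WDR6-WKO replicate 2, and -1.368 to 0.0555 for *Mup13*, which turned without WT replicate 1. The 3 WDR6-WKO libraries, the shared sequence of *Mup1*, *Mup7*, *Mup12* and *Mup17* and the few reads of *Mup1* limit these values. Using all 15 MUP rows in the sum was chosen after seeing the data.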
